A study of Mus musculus with 8 samples.

Results

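The genes followed here, in RNA sequencing of cultured mouse osteoblastic cells, encode receptors for hormones, vitamin D, retinoic acid and thyroid hormone. They are Pth1r, Ghr, Insr, Vdr, Rxra, Rara, Thra, Nr3c1 and Esr1, chosen by gene symbol, and make up 9 of the 51822 symbols used. The cells are called MC3T3-E1, an osteoblastic line from mouse calvaria, in the sample labels and calvarial cells in the study's design text, and which of the 2 was sequenced is not settled by these sources. All cultures were grown in alpha-MEM with 10% FBS, ascorbic acid, 10 nM dexamethasone, a synthetic ligand of the glucocorticoid receptor, and 10 mM β-glycerophosphate. The control groups received DMSO, the vehicle, and the treated groups 1 μM LAMZ (locamidazole), an aminoindazole derivative that the study describes as a drug that mimics locomotion. Total RNA was taken at day 7 and at day 14, and each of the 4 groups has 2 libraries, 8 in all. The labels number the replicates but do not say that they came from separate cultures, so the spread between them may be technical.

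The receptors belong to 2 classes. Pth1r, Ghr and Insr sit in the cell membrane: Pth1r is coupled to G proteins and raises cyclic AMP when it binds parathyroid hormone or PTHrP, Ghr signals through JAK2 and STAT5, and Insr is a tyrosine kinase that signals through IRS proteins and PI3 kinase. Vdr, Rara, Thra, Nr3c1 and Esr1 are nuclear receptors that bind DNA and change transcription when a small ligand is bound, and Rxra is the shared partner with which Vdr, Rara and Thra form heterodimers. In osteoblasts, parathyroid hormone and vitamin D act on bone formation and, through RANKL, on osteoclast formation, while prolonged glucocorticoid exposure is known to impair bone formation.

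With LAMZ, the receptors for parathyroid hormone and vitamin D were called higher at day 14 and 3 other nuclear receptors lower. At day 14, 5 of the 8 tested receptor genes passed an adjusted p of 0.05 in limma, against 23% of all 12514 genes tested. Pth1r and Vdr were higher, against 6.96% of all genes, and Nr3c1, Thra and Rxra were lower, against 16%. The call of Rxra was near the threshold (limma, adjusted p = 0.0450) and passed in 8 of 21 other ways of processing the values. At day 7, Pth1r alone passed, as higher, against 12.8% of all genes in either direction, 4.35% higher and 8.49% lower. The tested genes were those with an RPKM (reads per kilobase of gene, scaled to the mapped reads of the library, a level per length) of at least 1 in at least 2 libraries, and Esr1 was too low to be tested. Log2 fold changes below are on the log2(RPKM + 1) scale, which understates the change of low genes, while folds are ratios of mean RPKM.

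**Figure D1:**
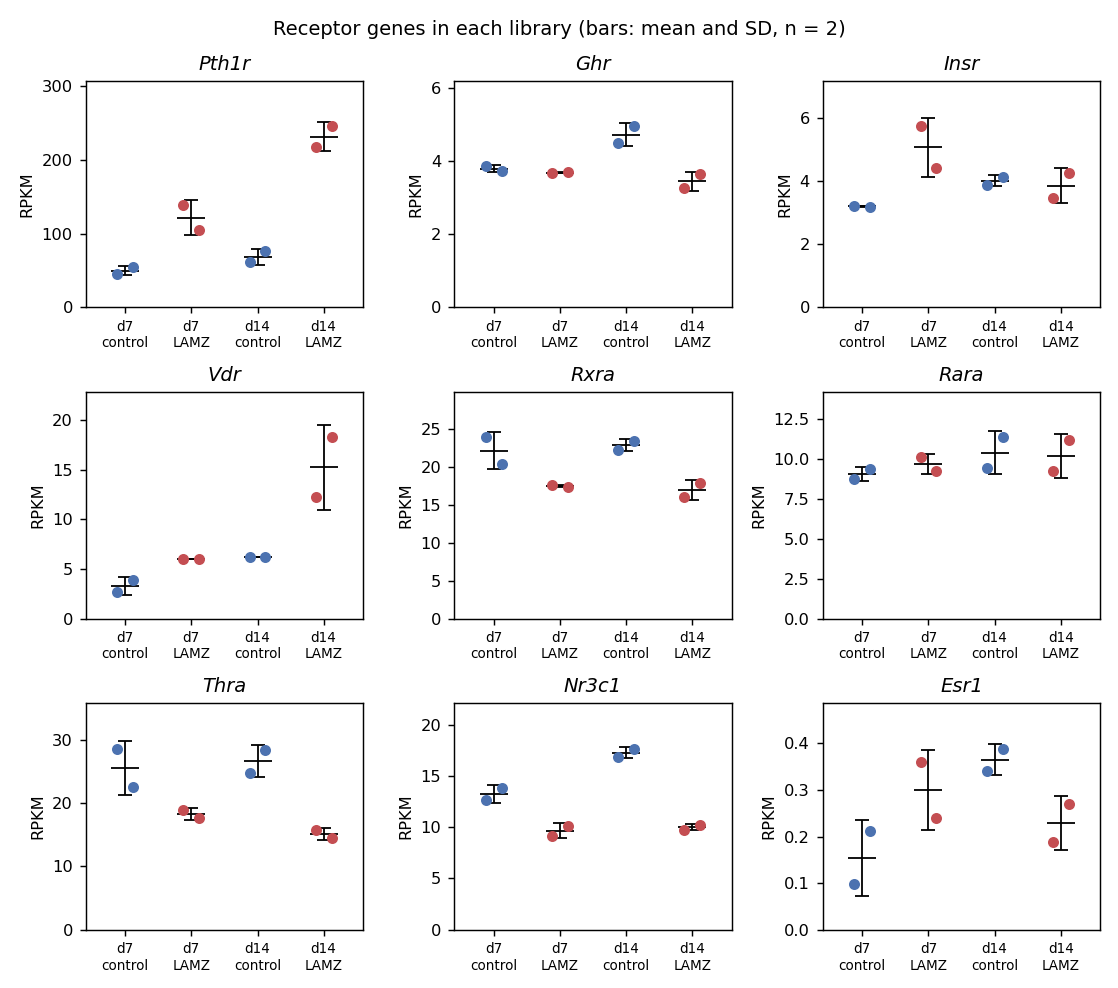
RPKM (vertical axes, each with its own scale) of the 9 receptor genes in each library, by day and treatment, with the mean and SD of the 2 libraries per group as bars. Pth1r and Vdr were highest in the day 14 LAMZ libraries, with Pth1r at 217 and 245 and Vdr at 12.2 and 18.2, whereas both libraries of Nr3c1, Thra and Rxra were lower with LAMZ than with DMSO on each day.

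The median log2 fold change over all tested genes was -0.08 at day 7 and -0.15 at day 14, and over the 8 tested receptors it was 0.03 and -0.21. The balance of calls depended on the scaling between libraries. Of all calls at day 14, 30.3% were higher with LAMZ as the values were deposited, 56.3% after centring each library on its median, 47.9% after quantile normalization and 8.16% after setting the same sum for every library. Setting the same sum moved the day 14 median of all genes to -0.43, and a change of a receptor is to be read against that shift. Leaving out any one of the 4 day 14 libraries lowered the number of genes called at day 14 from 2878 to between 1512 and 1773 (limma), and the shares of all genes fall with it. In each of these scalings Pth1r and Vdr stayed higher and Nr3c1, Thra and Rxra lower with LAMZ on both days.

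The libraries held 3463538 to 5832101 mapped reads, recovered from the RPKM values, of which 77.4% to 84.9% fell on genes. All 11 osteoblast markers were detected, at a summed RPKM of 7126 to 8741 in day 7 control, 9263 to 9591 with LAMZ at that day, 10334 to 10842 in control culture of day 14 and 14371 to 16294 with LAMZ at day 14. Markers of other cells were measured too. The 12 macrophage markers listed in the files summed to 453 to 587 in day 7 control and 1088 to 1137 in day 14 control libraries but to 7.59 to 9.28 and 7.30 to 7.96 with LAMZ, where C1qa, C1qb, C1qc and Tyrobp were listed at 0 in all 4 libraries. The 8 adipocyte markers summed to 31.0 to 43.3 and 63.8 to 126.8 in control libraries of day 7 and day 14, and to 8.73 to 9.67 and 11.4 to 12.4 with LAMZ. The 7 chondrocyte markers went the other way, with sums of 179 to 254 in control and 456 to 476 in LAMZ libraries at day 7, and 156 to 169 and 450 to 517 at day 14. Of these, 4 were higher at day 7 (Acan, Col2a1, Col9a1 and Matn1), and at day 14 those 4 and Comp were higher and Sox9 was lower (limma). Muscle markers summed to at most 4.18 and endothelial markers to at most 3.38 in any library. The macrophage, adipocyte and chondrocyte markers moved with every difference between LAMZ and control given here, and their part in the changes of the receptors was not tested. In bulk RNA, fewer cells of a type and less RNA per cell cannot be told apart.

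Pth1r (ENSMUSG00000032492), the receptor of parathyroid hormone, lies on the minus strand of chromosome 9 from 110722085 to 110747145 (GRCm38, GENCODE M21). It had an RPKM of 45.5 and 54.5 in the control and 138 and 105 in the LAMZ libraries of day 7, then 61.1 and 76.3 in the control and 217 and 245 in the LAMZ libraries of day 14. On each day the LAMZ libraries were both higher than the control libraries, and those of day 14 were the highest of all. Pth1r rose 2.43-fold at day 7 (log2 fold change 1.25, SE 0.18, adjusted p = 0.00428) and 3.37-fold at day 14 (1.74, SE 0.18, adjusted p = 5.01e-04) in limma. These values rest on 502 to 3710 reads per library, and the call held under every alternative at both days, with an adjusted p of at most 0.0404.

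Pth1r shares 95 exonic bases with Myl3, a myosin light chain gene on the other strand. Myl3 had at most 25 reads in a library, beside the 502 or more of Pth1r. From day 7 to day 14, the mean of Pth1r in control culture went from 50.0 ± 6.34 to 68.7 ± 10.7 (SD, n = 2), which did not pass in limma (adjusted p = 0.200). In LAMZ culture it rose 1.91-fold, from 121 ± 23.7 to 231 ± 19.6 (limma, adjusted p = 0.0137). This call was lost without day 7 LAMZ replicate 2 (log2 fold change 0.74), day 14 LAMZ replicate 1 (1.02, adjusted p = 0.0506) or day 14 LAMZ replicate 2 (0.85, adjusted p = 0.0953) in limma. The LAMZ effect was not shown to differ between the days, with a difference of 0.49 in log2 fold change and a limma adjusted p of 0.378.

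**Figure D2:**
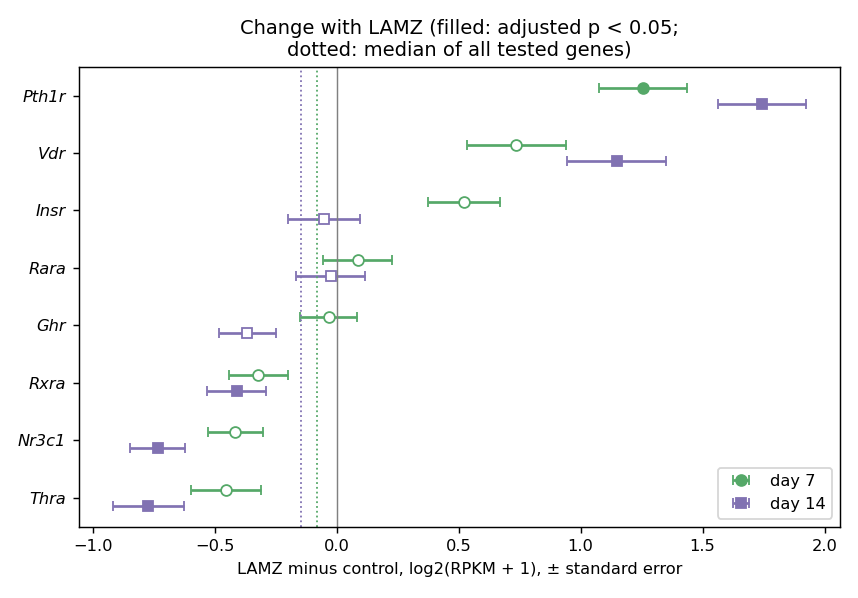
Log2 fold change of LAMZ against control (horizontal axis, log2(RPKM + 1) scale) for the 8 tested receptor genes at day 7 and day 14, with standard errors as bars, filled symbols for an adjusted p under 0.05 and dotted lines at the median of all tested genes. Pth1r stands at 1.25 and 1.74 and Vdr at 0.74 and 1.15, and at day 14 Thra, Nr3c1 and Rxra stand between -0.77 and -0.41.

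Most of the other genes of parathyroid hormone signalling did not pass the test, as was the case over all genes. Of 19 tested genes of a list of 25, 1 was higher and 4 were lower at day 14, and 1 was lower at day 7. Over all genes, 6.96% were higher and 16% lower at day 14, and 8.49% were lower at day 7. The median log2 fold change of the list was -0.20 at day 14 and -0.05 at day 7, beside -0.15 and -0.08 for all genes. The hormone gene Pth was at 0 reads in all libraries and Pthlh, which encodes PTHrP, at no more than 2 reads. Gnas, which encodes the stimulatory G protein alpha subunit through which the receptor raises cyclic AMP, had a mean RPKM of 76.6 ± 6.52 in day 14 control and 77.7 ± 6.40 in day 14 LAMZ libraries (SD, n = 2).

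Atf4, a transcription factor of osteoblasts and of the stress response, had an RPKM of 57.1 and 55.3 in the control and 64.3 and 63.7 in the LAMZ libraries of day 7, then 68.9 and 69.3 in the control and 170 and 157 in the LAMZ libraries of day 14. It rose at day 14 (log2 fold change 1.23, adjusted p = 2.02e-04) and not at day 7 (0.19, adjusted p = 0.298) in limma. Arrb2, a beta-arrestin that turns off G protein-coupled receptors, fell at both days, by 1.02 and 2.13 on the log2 scale (limma, adjusted p = 0.00359 and 6.42e-05). Prkacb, a catalytic subunit of the cyclic AMP-dependent kinase, fell at day 14 by 0.81 (limma, adjusted p = 0.00771), a call that was lost without day 14 LAMZ replicate 2 (limma, -0.71, adjusted p = 0.0585). Rgs2, which cyclic AMP is known to induce in osteoblasts, lay between 1.10 and 2.62 in every library and did not pass at either day (limma, adjusted p = 0.509 and 0.387).

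Ghr (ENSMUSG00000055737), the growth hormone receptor, lies on the minus strand of chromosome 15 from 3317760 to 3583492. Its RPKM was 3.87 and 3.73 in the control and 3.68 and 3.71 in the LAMZ libraries of day 7, then 4.50 and 4.96 in the control and 3.26 and 3.64 in the LAMZ libraries of day 14, from 117 to 219 reads. The LAMZ libraries were below the control libraries on each day, by little at day 7. In limma the log2 fold change was -0.03 at day 7 (95% interval -0.30 to 0.24, adjusted p = 0.898) and -0.37 at day 14 (-0.64 to -0.10, adjusted p = 0.0576). The day 14 difference missed the threshold and passed it with voom on the recovered reads (adjusted p = 0.0309) and with the same sum for every library (limma, 0.00419). It also passed in limma (0.0295) when each library was scaled to its reads on genes, with 7SL, 7SK and 5.8S RNA left out.

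Downstream of Ghr, 5 of the 14 tested genes were lower on each day by limma. Over all genes, 8.49% were lower at day 7 and 16% at day 14. By limma and by voom 0 were higher on each day. At an unadjusted p under 0.05 in limma, 1 was higher at day 7 and 0 at day 14. The medians were -0.30 at day 7 and -0.32 at day 14, beside -0.08 and -0.15 for all genes. Stat5a, which the receptor activates, fell at day 7 by 0.65 (limma, adjusted p = 0.0346), and its relative Stat5b fell at day 14 by 0.50 (limma, adjusted p = 0.0215). The calls of Stat5a and Stat5b were not checked under the alternatives. Socs2, a feedback inhibitor that STAT5 induces, had an RPKM of 2.34 and 2.64 in the control and 1.03 and 1.07 in the LAMZ libraries of day 7, then 3.26 and 4.41 in the control and 1.04 and 1.14 in the LAMZ libraries of day 14. It fell at both days, by 0.76 and 1.20 (limma, adjusted p = 0.0196 and 0.00170), and the day 7 call was lost without any one of the 4 day 7 libraries (limma, adjusted p of 0.0541 to 0.106).

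Igf1, the growth factor through which much of growth hormone's effect runs, was at 24.9 and 19.8 in the control and 20.8 and 21.7 in the LAMZ libraries of day 7, then 21.6 and 23.5 in the control and 12.5 and 12.3 in the LAMZ libraries of day 14. Only the day 14 LAMZ libraries stood apart, with a fall of 0.81 (limma, adjusted p = 0.00410) against -0.06 at day 7 (limma, adjusted p = 0.812). The difference between the days did not pass (limma, adjusted p = 0.120). Ptpn6, a phosphatase known mainly from blood cells, fell by 1.90 and 2.26 (limma, adjusted p = 7.85e-04 and 1.70e-04) and had at most 7 reads in a LAMZ library, beside the loss of macrophage markers given above.

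Insr (ENSMUSG00000005534), the insulin receptor, lies on the minus strand of chromosome 8 from 3122061 to 3279617. Its RPKM was 3.21 and 3.19 in the control and 5.74 and 4.40 in the LAMZ libraries of day 7, then 3.89 and 4.15 in the control and 3.46 and 4.26 in the LAMZ libraries of day 14, from 108 to 239 reads. At day 7 the LAMZ libraries were above the control libraries, whereas at day 14 the groups overlapped. In limma the log2 fold change was 0.52 at day 7 (95% interval 0.18 to 0.87, adjusted p = 0.0565) and -0.05 at day 14 (-0.39 to 0.29, adjusted p = 0.835), and the difference between the days did not pass (-0.57, adjusted p = 0.236). The day 7 value passed after median centring (limma, adjusted p = 0.0306), after quantile normalization (0.0340) and with voom (0.0250), and the sign at day 14 turned with median centring and quantile normalization.

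Of the 25 tested genes of insulin signalling, 5 were higher and 1 was lower at day 7, and 3 were higher and 5 lower at day 14. The medians were -0.05 and -0.26. The shares of all genes were 4.35% higher and 8.49% lower at day 7, and 6.96% and 16% at day 14. Slc2a1, the glucose transporter GLUT1, had an RPKM of 8.62 and 10.6 in the control and 28.2 and 22.6 in the LAMZ libraries of day 7, then 20.8 and 19.1 in the control and 37.2 and 41.8 in the LAMZ libraries of day 14. It rose at both days, by 1.31 and 0.95 (limma, adjusted p = 0.00170 and 0.00383). Foxo1, a transcription factor that insulin signalling holds out of the nucleus, rose from 2.77 ± 0.0591 to 8.13 ± 0.595 at day 7 and from 3.58 ± 0.600 to 6.96 ± 1.19 at day 14 (SD, n = 2), with limma adjusted p of 0.00188 and 0.00798.

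Pik3r1, a regulatory subunit of PI3 kinase, fell by 0.78 at day 7 and 1.09 at day 14 (limma, adjusted p = 0.00900 and 0.00117). The docking protein genes did not move together: Irs1 was higher at day 7 (log2 fold change 0.42, adjusted p = 0.0344) and lower at day 14 (-0.44, adjusted p = 0.0186), while Irs2 had -0.13 and -0.28 (adjusted p = 0.571 and 0.165) in limma. For Irs1 the difference between the days, at -0.86, just missed the threshold (limma, adjusted p = 0.0527). The calls of Irs1 were not checked under the alternatives. Leaving out 1 library ended the day 14 call of Foxo1 without day 14 control replicate 1 (limma, 0.66, adjusted p = 0.0516) and without day 14 LAMZ replicate 2 (0.64, 0.0592), and the day 7 call of Pik3r1 without day 7 LAMZ replicate 2 (-0.71, 0.0667).

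**Figure D3:**
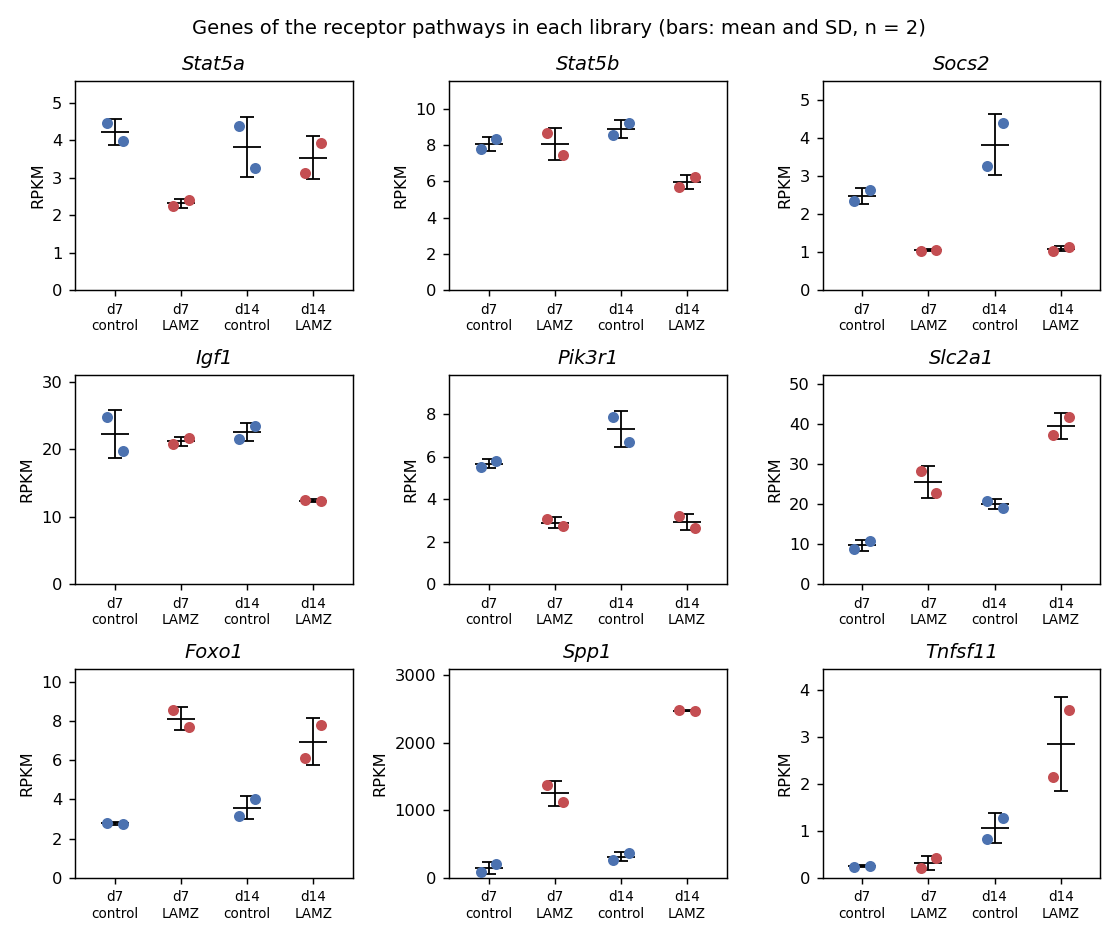
RPKM (vertical axes, each with its own scale) of 9 genes from the growth hormone, insulin and vitamin D lists in each library, with the mean and SD of the 2 libraries per group as bars. Socs2 and Pik3r1 were lower and Slc2a1, Foxo1 and Spp1 higher in both LAMZ libraries on each day, and Igf1 was lower with LAMZ at day 14, at 12.5 and 12.3.

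Vdr (ENSMUSG00000022479), the vitamin D receptor, lies on the minus strand of chromosome 15 from 97854425 to 97910630. Its RPKM was 2.63 and 3.88 in the control and 6.02 and 6.01 in the LAMZ libraries of day 7, then 6.16 and 6.22 in the control and 12.2 and 18.2 in the LAMZ libraries of day 14, from 56 to 503 reads. On each day the LAMZ libraries were both higher than the control libraries, and the day 7 LAMZ level lay beside that of day 14 control. Vdr rose 2.46-fold at day 14 (log2 fold change 1.15, SE 0.20, adjusted p = 0.00577) in limma, a call that held under every alternative. At day 7 the 1.85-fold difference just missed the threshold (0.74, SE 0.20, limma adjusted p = 0.0512) and passed in 9 of 21 alternatives, so the 2 days cannot be set apart by their calls. The difference between the days was 0.41 (limma, adjusted p = 0.509).

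In control culture Vdr went from 3.26 ± 0.887 at day 7 to 6.19 ± 0.0434 at day 14 (SD, n = 2), a 1.90-fold difference that did not pass (limma, adjusted p = 0.0728). In LAMZ culture it rose 2.53-fold, from 6.02 ± 0.00294 to 15.2 ± 4.27 (limma, adjusted p = 0.00889). The latter call was lost without day 7 LAMZ replicate 1 (limma, adjusted p = 0.0583), day 7 LAMZ replicate 2 (0.0677) or day 14 LAMZ replicate 2 (0.0560). Over all genes, 4.86% passed between the days in control culture (2.46% higher and 2.4% lower at day 14) and 14.4% in LAMZ culture (5.1% higher and 9.26% lower). Leaving out a library brought the 608 genes called in control culture to between 69 and 453, and leaving out a LAMZ library brought the 1797 of LAMZ culture to between 488 and 811 (limma). Among the receptors Pth1r and Vdr passed in LAMZ culture and none of the 8 in control culture by limma, where 3 had an unadjusted p under 0.05, voom on the recovered reads called 1, and Vdr and Nr3c1 passed when every library was set to the same sum.

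Pth1r and Vdr are the receptor genes that rose, and the bases before one annotated start of each are shown for this reason. They come from RefSeq on GRCm38.p6, run 5′ to 3′ on the minus strand, and stop before the first annotated exon. Capitals mark the GC box GGGCGG, the letters bound by Sp1 family factors, or its reverse complement CCGCCC, and matches that overlap are counted each.
Pth1r, chr9:110742720-110742860: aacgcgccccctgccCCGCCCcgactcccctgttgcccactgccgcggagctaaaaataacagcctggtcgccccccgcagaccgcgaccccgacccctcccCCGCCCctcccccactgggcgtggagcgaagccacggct
Vdr, chr15:97908311-97908546: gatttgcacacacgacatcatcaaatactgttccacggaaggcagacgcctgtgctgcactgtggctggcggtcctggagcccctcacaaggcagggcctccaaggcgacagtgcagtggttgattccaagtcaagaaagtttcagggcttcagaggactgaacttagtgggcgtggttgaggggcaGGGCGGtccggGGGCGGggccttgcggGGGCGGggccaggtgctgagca

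In the full 250 bases before the start, this Pth1r window held 4 GC boxes and the Vdr window 3. The printed bases hold 2 and 3 of these, with 109 and 14 bases left out at the exon. Of 32851 such windows in the promoter table, 32.7% held at least 1 box, 8.47% at least 3 and 4.09% at least 4. The other 2 starts of Pth1r in the table held 0 and 1. Receptors that did not rise held as many, with 4 in each of 2 windows of Rara, which overlap, and 3 in a window of Rxra. The boxes thus do not set Pth1r and Vdr apart. The RPKM values are per gene, so the start that gave the reads is not known, and a match of letters is a description and no binding site.

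Genes tied to vitamin D, not all of them its targets, did not all move with its receptor. Of 9 tested genes of a list of 16, Spp1 was higher at both days and Tnfsf11 at day 14. Over all genes, 4.35% were higher at day 7 and 6.96% at day 14. In the list 0 were lower by limma (0 and 2 at an unadjusted p under 0.05, 0 and 2 by voom), and the medians were 0.30 and 0.38. Spp1, which encodes osteopontin, had an RPKM of 84.0 and 204 in the control and 1380.0 and 1114 in the LAMZ libraries of day 7, then 266 and 361 in the control and 2476 and 2472 in the LAMZ libraries of day 14. Every LAMZ library lay above every control library, with log2 fold changes of 3.23 and 2.99 (limma, adjusted p = 0.00139 and 0.00108).

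Tnfsf11, which encodes RANKL, was low, at 2 to 5 reads per library at day 7 and 10 and 13 reads in day 14 control against 28 and 39 in day 14 LAMZ libraries. It rose at day 14 by 0.89 (limma, adjusted p = 0.0329), a call that passed in 13 of 20 alternatives. The call was lost without either day 14 control library or day 14 LAMZ replicate 2 (log2 fold change 0.62 to 1.05). It was also lost with a pseudocount of 0.1, without a filter on low values, with the same sum per library and with the 2 groups alone (limma, adjusted p of 0.0521 to 0.0859). Cyp24a1, the enzyme that breaks down vitamin D and a well-known target of its receptor, had at most 2 reads in any library. The osteocalcin genes Bglap and Bglap2 had log2 fold changes of -0.14 and 0.38 at day 14, neither past the threshold (limma, adjusted p = 0.857 and 0.613).

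Rxra (ENSMUSG00000015846), the heterodimer partner, lies on the plus strand of chromosome 2 from 27676440 to 27762957. Its RPKM was 23.9 and 20.4 in the control and 17.6 and 17.4 in the LAMZ libraries of day 7, then 22.3 and 23.4 in the control and 16.1 and 17.9 in the LAMZ libraries of day 14, from 386 to 654 reads. The LAMZ libraries lay below the control libraries on each day, and the levels of both days overlapped within each treatment. Rxra fell 1.35-fold at day 14 (log2 fold change -0.41, SE 0.12, adjusted p = 0.0450) and had -0.32 at day 7 (adjusted p = 0.129) in limma. The day 14 call passed in 8 of 21 alternatives and was lost after median centring (-0.22, limma adjusted p = 0.190) and when any one of the day 14 libraries or of the day 7 LAMZ libraries was left out (limma, adjusted p of 0.0773 to 0.201). Its close relative Rxrb had -0.09 at day 14 (limma, adjusted p = 0.629), and Rxrg was at no more than 12 reads.

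Rara (ENSMUSG00000037992), the retinoic acid receptor alpha, lies on the plus strand of chromosome 11 from 98927818 to 98974942. Its RPKM was 8.75 and 9.39 in the control and 10.2 and 9.23 in the LAMZ libraries of day 7, then 9.43 and 11.4 in the control and 9.23 and 11.2 in the LAMZ libraries of day 14, from 142 to 238 reads. The groups overlapped on each day. In limma the log2 fold change was 0.09 at day 7 (95% interval -0.24 to 0.41, adjusted p = 0.740) and -0.02 at day 14 (-0.35 to 0.30, adjusted p = 0.921), and its sign turned with the scaling. Rarg, the retinoic acid receptor gamma, lay between 17.2 and 21.8 in all libraries and had -0.02 and 0.24 (limma, adjusted p = 0.921 and 0.149).

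While these receptors did not pass, some other genes tied to retinoids did, among them Cyp26b1, which breaks down retinoic acid, as lower at day 14 in limma. Of 16 tested genes of a list of 23, 4 were lower and 0 higher at day 7 by limma (1 higher at an unadjusted p under 0.05, 0 by voom). At day 14, 6 were lower and 2 higher, and the medians were -0.15 and -0.33. For all genes the shares were 8.49% lower and 4.35% higher at day 7, and 16% and 6.96% at day 14. Crabp1, which binds retinoic acid in the cell, had an RPKM of 114 and 58.3 in the control and 44.4 and 51.7 in the LAMZ libraries of day 7, then 19.3 and 27.9 in the control and 4.28 and 3.32 in the LAMZ libraries of day 14. It was lowest in the day 14 LAMZ libraries and fell by 2.34 at day 14 (limma, adjusted p = 0.00151), against -0.76 at day 7 (adjusted p = 0.151). Rarres2, which encodes chemerin, fell by 1.69 and 2.34 (limma, adjusted p = 2.90e-04 and 2.92e-05). In the other direction Rbp4, the carrier of retinol in blood, rose at day 14 from 2.15 and 4.95 to 16.3 and 17.8 (log2 fold change 2.06, limma adjusted p = 0.00212).

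Thra (ENSMUSG00000058756), the thyroid hormone receptor alpha, lies on the plus strand of chromosome 11 from 98740638 to 98769006. Its RPKM was 28.6 and 22.5 in the control and 19.0 and 17.6 in the LAMZ libraries of day 7, then 24.8 and 28.4 in the control and 15.8 and 14.5 in the LAMZ libraries of day 14, from 327 to 615 reads. The LAMZ libraries lay below the control libraries on each day. Thra fell 1.76-fold at day 14 (log2 fold change -0.77, SE 0.14, adjusted p = 0.00737), against -0.45 at day 7 (SE 0.14, adjusted p = 0.0791), in limma, and the difference between the days did not pass (-0.32, adjusted p = 0.476). The day 14 call was lost without day 14 control replicate 2 (limma, -0.68, adjusted p = 0.0509) and without day 14 LAMZ replicate 2 (-0.71, 0.0540).

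The 3′ end of Thra shares 263 exonic bases with Nr1d1, the clock gene REV-ERB alpha on the other strand, and the sources used here do not say that reads were counted by strand. Nr1d1 fell by 0.72 at day 14 (limma, adjusted p = 0.0246), with 95 and 101 reads in day 14 LAMZ libraries beside 425 and 327 of Thra. This call of Nr1d1 was not checked under the alternatives. The thyroid hormone receptor beta gene Thrb was at an RPKM of 0.364 to 1.25 and was not tested. Of 8 tested genes of thyroid hormone action, 1 was higher at day 7 and 4 were lower at day 14, with medians of -0.07 and -0.42. These counts stand beside 4.35% of all genes higher at day 7 and 16% lower at day 14. Dio2, which activates thyroid hormone, had 52 and 54 reads in day 14 control and 8 and 14 in day 14 LAMZ libraries and fell by 1.07 (limma, adjusted p = 0.0161). Dio3, which inactivates it, fell by 0.96 at day 14 (limma, adjusted p = 0.0247), and Me1, a lipogenic enzyme under thyroid hormone control, rose by 0.73 at day 7 (limma, adjusted p = 0.0167). Leaving out 1 library of the day ended the call of Dio2 and of Me1 in 4 of 4 cases (limma, adjusted p of 0.0501 to 0.0959 and of 0.0572 to 0.108) and that of Dio3 in all but the case without day 14 LAMZ replicate 1 (up to 0.147).

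Nr3c1 (ENSMUSG00000024431), the glucocorticoid receptor, lies on the minus strand of chromosome 18 from 39410545 to 39519421. Its RPKM was 12.6 and 13.8 in the control and 9.19 and 10.2 in the LAMZ libraries of day 7, then 16.9 and 17.7 in the control and 9.77 and 10.2 in the LAMZ libraries of day 14, from 291 to 673 reads. All 4 LAMZ libraries lay below all 4 control libraries, and the LAMZ levels of both days overlapped (log2 difference 0.04, limma adjusted p = 0.835). Nr3c1 fell 1.73-fold at day 14 (log2 fold change -0.73, SE 0.11, adjusted p = 0.00315) in limma and under every alternative. At day 7 the value was -0.41 (SE 0.11) with a limma adjusted p of 0.0502, which passed in 6 of 21 alternatives, and the difference between the days did not pass (-0.32, adjusted p = 0.360).

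Genes tied to glucocorticoid action, not all of them induced by it, went both ways at day 14, with the ligand dexamethasone present in all groups. Of 20 tested genes of a list of 23, 0 were higher at day 7 by limma (0 at an unadjusted p under 0.05, 0 by voom) and 2 lower. At day 14, 3 were higher and 4 lower, and the medians were -0.07 and -0.04. Among all genes, 4.35% were higher and 8.49% lower at day 7, and 6.96% and 16% at day 14. Fkbp5, a standard readout of the receptor, lay between 1.29 and 1.54 at day 7 and between 0.612 and 0.834 at day 14, with no difference by treatment past the threshold (limma, log2 fold change -0.02 and -0.10, adjusted p = 0.960 and 0.726). Tsc22d3, which encodes GILZ, did not pass either (limma, -0.31 and 0.06, adjusted p = 0.343 and 0.840). The signs of Fkbp5 turned with the scaling.

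Of the metallothioneins, metal-binding proteins that glucocorticoids and metals induce, Mt1 was at 4.93 and 6.57 in day 14 control and 13.3 and 15.8 in day 14 LAMZ libraries, a rise of 1.21 (limma, adjusted p = 0.00327). Mt2 was near the floor, at 0 to 13 reads per library, and had -0.91 at day 7 and 1.13 at day 14 (limma, adjusted p = 0.0389 and 0.0103). The day 7 call of Mt2 was lost when any one of the 8 libraries was left out (limma, adjusted p of 0.0522 to 0.198), and the day 14 call without day 14 control replicate 2 (0.0596) or day 14 LAMZ replicate 2 (0.0891). Hsd11b1, the enzyme that regenerates active glucocorticoid, had 54 and 34 reads in day 14 control and 16 and 0 in day 14 LAMZ libraries and fell by 1.12 (limma, adjusted p = 0.0173), a call that was lost without either day 14 control library or day 14 LAMZ replicate 2 (limma, adjusted p of 0.0528 to 0.0975).

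Esr1 (ENSMUSG00000019768), the oestrogen receptor alpha, lies on the plus strand of chromosome 10 from 4611593 to 5005614. It was the lowest of the 9 genes in every group, at an RPKM of 0.0971 and 0.211 in the control and 0.360 and 0.239 in the LAMZ libraries of day 7, then 0.341 and 0.389 in the control and 0.188 and 0.270 in the LAMZ libraries of day 14. These values rest on 5 to 25 reads, above the floor of 3 reads but too few for a difference between groups to be read. Esr2, the second oestrogen receptor, had at most 7 reads, and Cyp19a1, the aromatase that makes oestrogen, at most 2. Of 5 tested genes of a list of 16, 1 was higher at day 14, against 6.96% of all genes. By limma 0 were lower at that day (1 at an unadjusted p under 0.05, 1 by voom), against 16%. The higher gene was Hsd17b1, which makes oestradiol from oestrone. It rose from 12 and 7 to 31 and 30 reads (log2 fold change 1.14, limma adjusted p = 0.00844). This call was lost without day 14 control replicate 2 (log2 fold change 0.98) or day 14 LAMZ replicate 2 (1.05). At day 7, 0 passed by limma, by voom or at an unadjusted p under 0.05, against 4.35% of all genes higher and 8.49% lower.

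**Figure D4:**
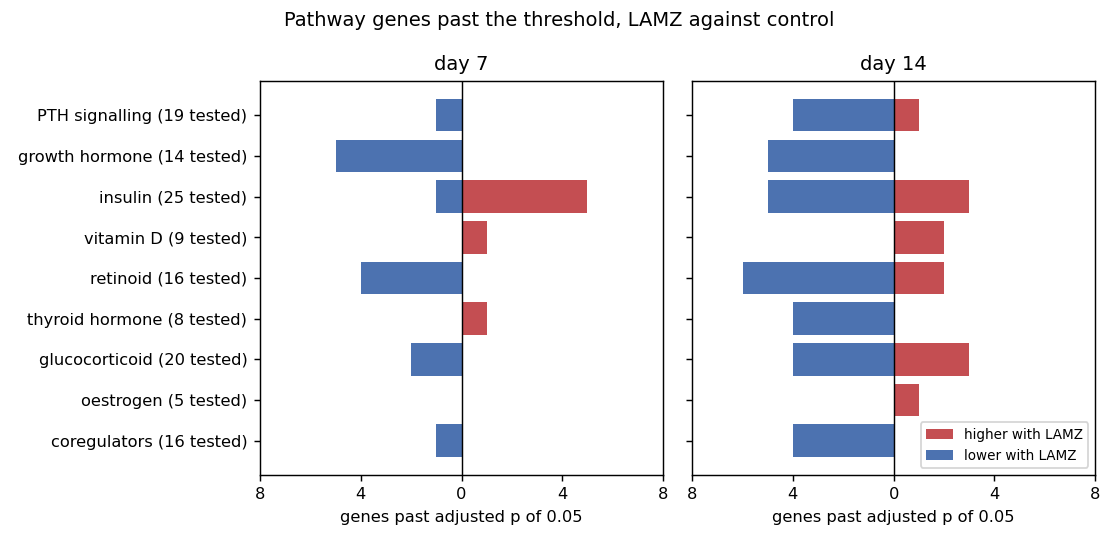
Number of genes (horizontal axis) past an adjusted p of 0.05 in each receptor's pathway list, higher with LAMZ to the right and lower to the left of 0, at day 7 (left panel) and day 14 (right panel), with the number tested beside each name. Of the growth hormone genes 5 were lower on each day, while insulin genes were 5 higher and 1 lower at day 7 and 3 higher and 5 lower at day 14. Over all genes, 4.35% were higher and 8.49% lower at day 7, and 6.96% and 16% at day 14.

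Coregulators, the proteins that nuclear receptors recruit to activate or repress transcription, were mostly within the spread. Among the 16 tested, 4 were lower at day 14, where 16% of all genes were. Ncoa2, a coactivator of the steroid receptor family, fell at day 14 by 0.53 (limma, adjusted p = 0.0212). Tbl1xr1, a subunit of corepressor complexes, fell at day 14 by 0.52 (limma, adjusted p = 0.0321), and Ncoa4 also fell at that day. Each of the calls for Ncoa2 and Tbl1xr1 was lost in at least 4 of the 8 fits that left out 1 library, with adjusted p of up to 0.182 in limma.

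Within the nuclear receptor family, 22 of 49 genes were tested. At day 14 Vdr was the 1 member higher with LAMZ and 7 were lower (Thra, Rxra, Nr3c1, Nr1d1, Nr1d2, Nr2f1 and Nr2f2), against 6.96% and 16% of all genes, and the median was -0.27 beside -0.15 for all genes. At day 7 Nr2f2 alone passed, as lower, against 4.35% of all genes higher and 8.49% lower. Nr2f1 and Nr2f2, the orphan receptors COUP-TFI and COUP-TFII, fell by 1.07 and 0.84 at day 14 (limma, adjusted p = 0.0259 and 0.0104), and Nr1d2, the clock receptor REV-ERB beta, by 0.72 (limma, adjusted p = 0.0155). All 3 of these calls were lost without day 14 control replicate 2 (limma, adjusted p of 0.0634 to 0.151) and without day 14 LAMZ replicate 1 (0.0685 to 0.105).

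**Figure D5:**
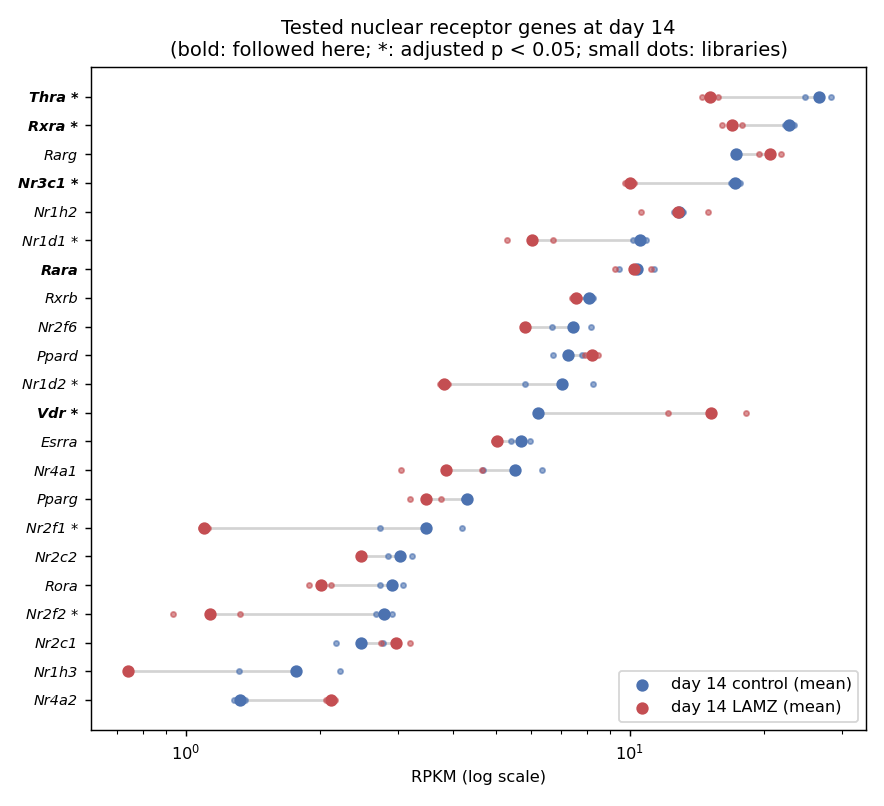
RPKM (horizontal axis, log scale) of the 22 tested nuclear receptor genes at day 14, with large dots for the mean and small dots for the 2 libraries of control and LAMZ culture, and an asterisk for an adjusted p under 0.05. Vdr moves from a mean of 6.19 to 15.2, to the right of most of the family, while Thra moves left from 26.6 to 15.2.

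The order of levels per length changed with LAMZ. Pth1r was the highest of the 9 receptor genes in every group, apart from the next in each. Thra was 2nd and Rxra 3rd in both control groups, with ranges that overlapped at day 7 and not at day 14. Vdr was 7th in day 7 control, where it overlapped Ghr and Insr, 6th in day 7 LAMZ and in day 14 control, and 3rd in day 14 LAMZ, where its libraries overlapped those of Rxra and Thra. Among all 49 nuclear receptors, the mean of Vdr ranked 15 in the control and 9 in the LAMZ culture of day 7, and 12 and 3 in those of day 14. Thra ranked 1 in both control groups and 4 in day 14 LAMZ, and Esr1 ranked 27 to 33.

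For each tested receptor, the genes most alike in level across the 8 libraries were sought among 5603 genes with a mean RPKM of at least 5, by Pearson's r of log2(RPKM + 1). These r values describe 8 libraries that differ in depth, day and treatment. Pth1r was most like Galnt3 (r = 0.992) and Gpc1 (0.990), and Vdr most like Col1a1 (0.989) and Bmp8a (0.986). Nr3c1 was most like Ctsh (0.996) and Mettl7a1 (0.992), Thra like Ehbp1 (0.988) and Thy1 (0.983), and Rxra like Col4a2 (0.983) and Homer3 (0.981). The values were lower for Ghr, with Scg2 (0.971) and Ifitm1 (0.968), for Rara, with 2900026A02Rik (0.929) and Sidt2 (0.925), and for Insr, with Rasa3 (0.921) and Omd (0.916). An r of at least 0.95 was reached by 64 genes for Pth1r, 46 for Vdr, 90 for Nr3c1, 85 for Thra and 32 for Rxra. Ghr had 5 such genes, and Rara and Insr 0. The genes named for the first 5 receptors are thus the top of many. Galnt3, an enzyme of O-glycosylation, had an RPKM of 1.15 and 1.98 in the control and 5.68 and 5.05 in the LAMZ libraries of day 7, then 2.09 and 2.93 in the control and 11.3 and 10.7 in the LAMZ libraries of day 14, so it followed the order of Pth1r at a far lower level.

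Averaged over both days, 5 of the 8 tested receptors passed, against 29.5% of all genes (9.12% higher and 20.3% lower). Pth1r (log2 fold change 1.50, adjusted p = 1.32e-04) and Vdr (0.94, adjusted p = 0.00214) were higher, and Thra (-0.61, adjusted p = 0.00322), Nr3c1 (-0.57, adjusted p = 0.00142) and Rxra (-0.36, adjusted p = 0.0149) were lower in limma. The call of Rxra was lost without either day 7 LAMZ library (limma, adjusted p = 0.0505 and 0.0527) or day 14 LAMZ replicate 1 (0.0559). For a difference of the LAMZ effect between the days, 0 of the 8 passed in limma (1 at an unadjusted p under 0.05, 0 by voom), against 0.623% of all genes (0.312% with a larger and 0.312% with a smaller value at day 14). These 78 genes became 0 without day 14 control replicate 2 (1699 at an unadjusted p under 0.05) and 1 to 21 without any other library (limma).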

How the data were processed

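RNA sequencing of 8 libraries of cultured mouse osteoblastic cells was used, with groups taken from the labels. The authors sequenced on an Ion Proton, assigned reads to genes in CLC Genomics Workbench and deposited RPKM values per gene symbol. The submitters name mm10 as the build, and the version of the program, the annotation and the use of strand are not given in the sources used here. In each file, 4 rows with duplicated symbols were dropped, which left 51822 symbols, of which 47508 were found in the gene name table.

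Genes reaching an RPKM of 1 in 2 or more libraries, 12514 in number, were tested. Their log2(RPKM + 1) values entered one limma 3.58.1 model (R 4.3.3; lmFit, then eBayes with the trend option) with a mean for each of the 4 groups, which leaves 4 residual degrees of freedom. Adjustment was by Benjamini and Hochberg over all tested genes, and an adjusted p under 0.05 was called. Means are given with the SD of 2 libraries. The script was tested on simulated data.

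Whole reads were recovered from the deposited RPKM values with gene lengths of GENCODE M21 (GRCm38). At the mapped reads found, 95.9% to 97.1% of the low values checked came out whole within 0.02 read, and reads were recovered for 99.99% of the 29944 genes above 0. For Nr3c1 and Insr, as for 6765 genes, the length was solved from the values. The recovered reads entered limma voom (12512 genes) as an alternative. It called 1987 genes at day 7 and 3679 at day 14. A floor of 3 reads covers counting error only, since PCR reads are not independent molecules. Replicates correlated at r = 0.961 to 0.980 and differed beyond sampling noise, with a chi-square per gene of 3.94 to 6.47, so each counted as a library of its own.

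Promoter sequences were taken from a RefSeq table on GRCm38.p6, which matched 6 of the 9 receptor genes. The receptors and the pathway lists were chosen with earlier results of these data known, so no list was tested as a set, and counts and medians are given as descriptions. The genes named were the 9 receptors, up to 3 genes of each list with the largest change among those called at day 7 or day 14, the readout genes Cyp24a1, Fkbp5, Tsc22d3, Igf1, Socs2, Rarb, Rgs2, Irs2 and Dio2, and the 2 genes most alike in pattern to each receptor. Some genes that this rule names are not reported here. Further genes named for their role (ligands, paralogs and partners) were chosen after their values were seen. The alternatives were other pseudocounts, filters, scalings, blocks and fits, and leaving out each library in turn. Voom was added after seeing the data. So was a scaling to the reads on genes, with 7SL, 7SK and 5.8S RNA left out, in place of all mapped reads.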

Additional observations from a re-analysis of the deposited data

Results flagged for a closer look

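Among the pathway genes named by size of change or as readouts, the LAMZ effect on 2 differed between day 7 and day 14 by the interaction in limma. Over all tested genes, 0.623% had such a difference. Cyp26b1, of the retinoid list but not named by these rules, passed too, with a smaller value at day 14, and was not checked under the alternatives. For Atf4, the log2 fold change was 0.19 at day 7 and 1.23 at day 14, a difference of 1.04 (limma, adjusted p = 0.0369), with the day 14 LAMZ libraries at 170 and 157 RPKM and the 6 others between 55.3 and 69.3. For Mt2, the log2 fold change was -0.91 at day 7 and 1.13 at day 14, a difference of 2.05 (limma, adjusted p = 0.0447), on 0 and 1 reads in day 7 LAMZ and 11 and 13 reads in day 14 LAMZ libraries. Both of these calls were lost whichever of the 8 libraries was left out, with limma adjusted p of 0.0592 to 0.151 for Atf4 and 0.0677 to 0.173 for Mt2, without a filter on low values (0.0926 and 0.136) and with the replicate block across all groups (0.0674 and 0.0577). With voom, Atf4 passed (adjusted p = 0.00434) and Mt2 did not (0.136). None of the 8 tested receptor genes met this rule, and groups of 2 libraries are too small to look for a single library that stands apart.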

How the results depend on the processing

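The values of the receptors, of the genes named from the lists by size of change and of the readout genes were recomputed under up to 21 alternatives. Calls of other genes, among them Stat5a, Stat5b, Irs1, Ncoa4, Nr1d1 and Cyp26b1, were not checked this way. With 2 libraries a group, calls near the threshold moved easily. The number of receptors called at day 7, 1 as reported, was 2 with a pseudocount of 5. It was 3 with a pseudocount of 0.1, with a mean RPKM of at least 5, with median centring or with quantile normalization. Scaling to the reads on genes without 7SL, 7SK and 5.8S RNA also gave 3. The number was 4 with the same sum per library and 5 with voom, and it moved when a library was left out. Leaving out a library gave 3 to 5 at day 14, where 5 were called, and 0 to 2 between the days in LAMZ culture, where 2 were. Between the days in control culture 0 were called, 1 with a mean RPKM of at least 5 or with voom and 2 with the same sum. The causes were not tested, beyond the fewer samples or genes that some settings hold. All genes called at day 7 numbered 1607, but 951 without a filter, 3592 with the same sum, 624 with the 2 groups alone and 527 to 1383 when a library was left out (960, 527 and 658 without day 7 control replicate 1, day 7 LAMZ replicate 1 and day 7 LAMZ replicate 2). At day 14 they numbered 2878, but 5796 with the same sum, 1795 with a mean RPKM of at least 5 and 1512 to 3087 when a library was left out, with the 4 lowest counts, up to 1773, for the day 14 libraries. Between the days in control culture they numbered 608, but 203 without a filter, 1135 with the same sum, 1027 with voom, 0 with the 2 groups alone in limma (2184 at an unadjusted p under 0.05) and 69 to 453 when a library was left out, of which 453, without day 7 control replicate 2, was the 1 count within 1.5 times. In LAMZ culture they numbered 1797, but 1091 without a filter, 2711 with voom and 488 to 811 without any one of the 4 LAMZ libraries. Averaged over both days they numbered 3686, and 7207 with the same sum. For the difference between the days they numbered 78, but 0 without a filter or without day 14 control replicate 2 in limma (2931 and 1699 at an unadjusted p under 0.05), 1 to 21 without any other library, 17 and 7 with the blocks, and 314 with voom.

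Same-numbered libraries showed no shared deviation from their group means, with r = -0.0166 at day 7 and 0.0158 at day 14. Such a correlation cannot tell whether they were cultured together, which the labels do not say. When the replicate number entered as a block over the 4 groups, 2 receptors were called at day 7 and 4 at day 14 (1376 and 2700 genes), and with a block within each day 1 and 4 (984 and 2171 genes).

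Signs turned for small log2 fold changes. With median centring and quantile normalization these were Ghr at day 7 (0.081 for both), Insr at day 14 (0.14 and 0.15), Rara at day 14 (0.17 and 0.10), Hsd11b1 (0.052 and 0.13), Dio2 (0.042 and 0.14), Nr1d2 (0.10 and 0.097), Fkbp5 (0.094 and 0.097) and Igf1 (0.052 and 0.0018) at day 7, and Fkbp5 at day 14 (0.095 and 0.23). Between the days in LAMZ culture, Ghr was 0.024, 0.027 and 0.076 and Rxra 0.061, 0.027 and 0.15 with median centring, quantile normalization and the same sum. With the same sum, Insr over both days was -0.036, Rara -0.19 at day 7 and -0.27 over both days, Atf4 -0.12 and Tbl1xr1 -0.22 at day 7, and Me1 -0.19 and Tsc22d3 -0.27 at day 14. Scaled to the reads on genes without the small RNAs, Rara over both days was -0.0057.

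When a library was left out, the sign turned within these ranges. At day 7 they were -0.045 to 0.20 for Tnfsf11, -0.17 to 0.051 for Hsd11b1, -0.24 to 0.10 for Dio2, -0.021 to 0.14 for Tbl1xr1, -0.10 to 0.078 for Nr1d2, -0.094 to 0.055 for Fkbp5 and -0.22 to 0.098 for Igf1. At day 14 they were -0.17 to 0.068 for Insr, -0.15 to 0.10 for Rara and -0.041 to 0.17 for Tsc22d3. Rara spanned -0.032 to 0.093 over both days. For LAMZ culture between the days the range was -0.023 to 0.11 for Nr3c1, -0.11 to 0.032 for Rxra and -0.062 to 0.19 for Rara, and for control culture -0.062 to 0.16 for Rxra and -0.11 to 0.23 for Thra. For the difference between the days it was -0.20 to 0.020 for Rxra and -0.24 to 0.015 for Rara.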
